A study of Mus musculus with 8 samples.

Results

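Cycling cortical thymic epithelial cells (cTEC) were chosen from the single-cell libraries of the thymus at E15.5 and E17.5 (embryonic days) and in the newborn (NB) as the cells with at least 3 UMIs of Top2a and Mki67 together. A UMI is a unique molecular identifier and stands for 1 captured transcript. Of 15526 cells kept in these 3 libraries, 1905 met the rule, out of 25750 cells in the 8 libraries of the series. Resting cTEC are here the 10200 cells of the same 3 libraries in which both genes were at 0, and the 766, 2101 and 554 cells with 1 or 2 UMIs of the pair at E15.5, E17.5 and NB were left out of the comparison. All mice were WT (unaltered genotype) of the strain C57 B6 (CD45.2), and each library holds live sorted cells, DAPI- EpCAM+ CD45- Ly51+ and UEA-1-, from the thymus. NB mice were 0 to 2 days old and of either sex. The series also holds E13.5 total TEC (EpCAM+ CD45-), adult cTEC (replicates 1 and 2) and adult medullary TEC (mTEC, Ly51- UEA-1+, replicates 1 and 2), all WT and of the same strain. The number of animals behind a library is not given, so p-values measure the spread between these libraries.

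The cortex of the thymus is where immature T cells are supported and positively selected, and cTEC supply the ligands, cytokines and peptide-presenting molecules that this needs. Fetal cTEC divide as the organ grows. A dividing cell first makes the enzymes that copy DNA in S phase, with E2F factors at their promoters, and then the cyclins, kinases and spindle proteins of G2 phase and mitosis (G2M), which the MuvB complexes with B-MYB and FOXM1 activate. Top2a encodes the topoisomerase that untangles copied chromosomes and Mki67 encodes a coat protein of mitotic chromosomes, so both mark mainly the later stages.

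The 3 libraries were not made alike. E15.5 and NB belong to the first data set of the study and E17.5 to the second, and fetal thymi were dispersed with trypsin whereas NB thymi were digested with Liberase and enriched on Percoll, so age, data set and preparation cannot be told apart. Kept cells numbered 3571 at E15.5, 8350 at E17.5 and 3605 at NB, with a median of 7382, 10366 and 6133 UMIs per cell. Cells with over 5000 detected genes were left out, and 2, 50 and 4 of them would have been cycling cells by the rule. No doublet caller was run. Between 22 and 42 barcodes were shared by any pair of these libraries.

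The share of cycling cells was 22.1% at E15.5 (788 of 3571 cells, 95% exact binomial interval 20.7 to 23.5), 10.3% at E17.5 (862 of 8350, 9.68 to 11.0) and 7.07% at NB (255 of 3605, 6.26 to 7.96). Intervals cover counting error only, and with 1 library per age a difference between ages has no test. Because a deeper cell reaches 3 UMIs more easily, each cell with at least 4000 UMIs was also thinned to 4000. This gave 17% at E15.5 (574 of 3377 cells), 5.40% at E17.5 (438 of 8114) and 5.33% at NB (170 of 3190). Shallower cells were left out, at NB 357 resting and 9 cycling cells, so the thinned shares are over fewer cells. Among the cells deep enough to thin, the E15.5 library remained highest, while E17.5 and NB lay side by side. By the same rule E13.5 TEC held 46.2% cycling cells, adult cTEC 1.38% and 4.11%, and adult mTEC 6.31% and 9.39%. Of the 7 and 22 adult cTEC that met it, 4 and 6 held at least 2 thymocyte UMIs, and without such cells the shares were 0.636% and 3.21%. After thinning, the shares by the rule were 35.7% for E13.5, 1.20% and 1.67% for adult cTEC (3 of 251 and 8 of 478 cells) and 1.95% and 2.53% for adult mTEC. Tuft cells, which are not known to divide, were among the adult mTEC and met the rule in 1 of 39 cells (2.56%) in replicate 1 and 16 of 255 (6.27%) in replicate 2, at a median of 8530 and 10945 UMIs. The exact binomial intervals of these tuft shares, 0.0649 to 13.48 and 3.63 to 9.99, include the mTEC shares of 6.31% and 9.39%. No such cells were counted in adult cTEC.

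**Figure D1:**
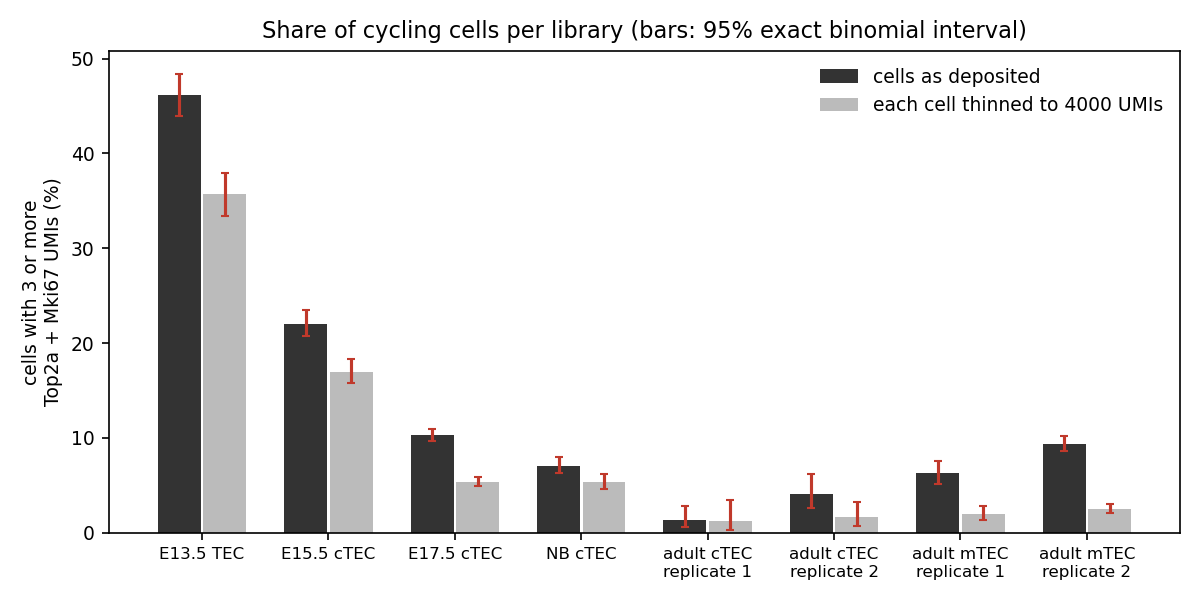
Percent of kept cells with at least 3 UMIs of Top2a and Mki67 in each of the 8 libraries, as deposited (dark bars) and after thinning to 4000 UMIs (grey bars), with 95% exact binomial intervals. Cells under 4000 UMIs are left out of the grey bars. The E15.5 bar stands at 22.1% and 17%, and the E17.5 and NB grey bars meet at 5.40% and 5.33%.

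Cycling cells carried a median of 11 UMIs of the pair at E15.5, 10 at E17.5 and 8 at NB, and 87.2%, 83.3% and 80.4% of them had both transcripts. Their Top2a level was 829 CPM at E15.5 (UMIs of the gene scaled to the same total in every sum), 562 at E17.5 and 697 at NB, and their Mki67 level was 322, 172 and 265 CPM, against 0 in resting cells by the rule. These values chose the cells and carry no test. At the edge of the rule, the 84, 119 and 37 cells with exactly 3 UMIs had a Cdk1 level of 82.0, 98.1 and 132 CPM, and the cells just outside with 2 UMIs had 34.9, 31.5 and 47.8 CPM. Psmb11 stepped the other way across the same edge, with 1004, 1105 and 850 CPM in the cells inside and 1228, 1464 and 1209 CPM in those outside.

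**Figure D2:**
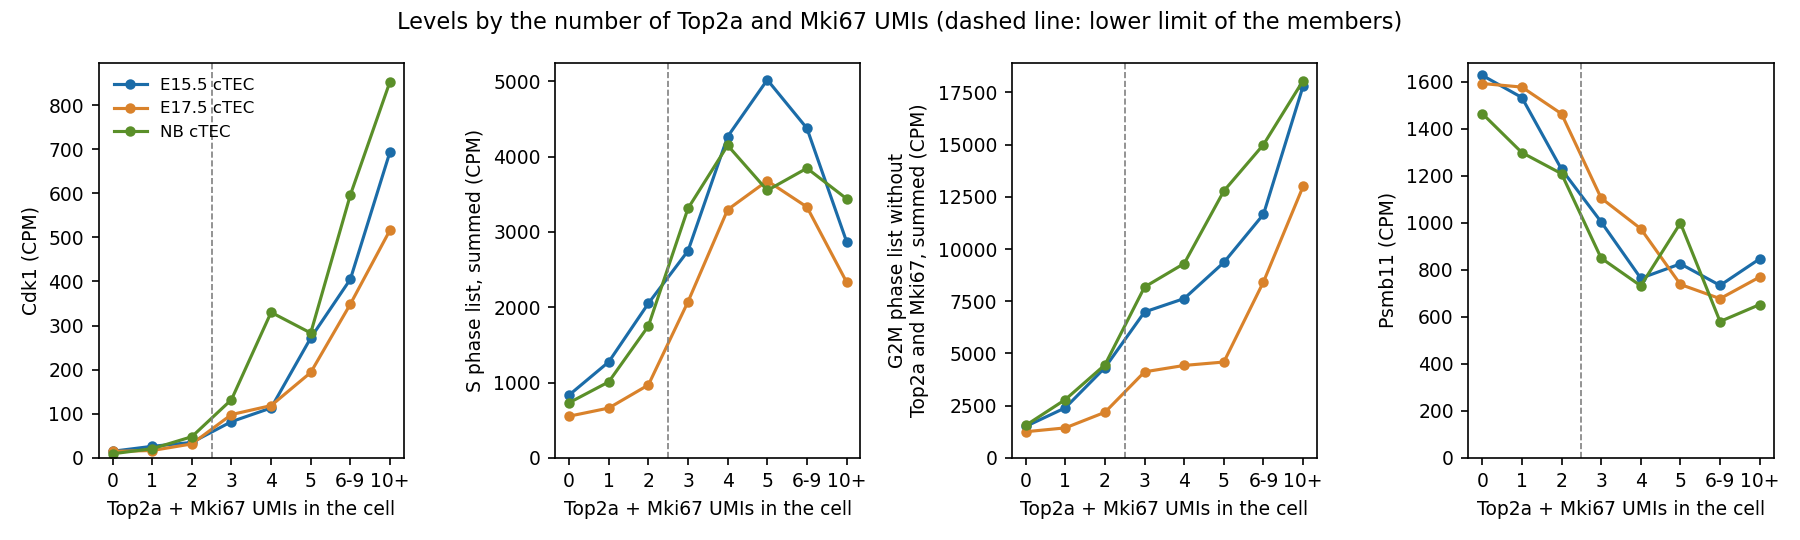
Levels in cells grouped by their Top2a and Mki67 UMIs, for each of the 3 cTEC libraries, with the dashed line at the rule of 3 UMIs. Cdk1 goes from 14.8, 14.6 and 9.14 CPM in cells with none to 694, 516 and 853 CPM in cells with 10 or more, while Psmb11 is lower to the right of the line.

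The cells matched their label. Cdk1, the kinase that drives entry into mitosis and a marker not used by the rule, was found in 85.8% of cycling cells at E15.5, 84.5% at E17.5 and 83.9% at NB, against 8.92%, 12.9% and 5.26% of resting cells. At least 1 UMI of Psmb11 or Prss16, proteases made by cTEC, was present in 99.5%, 100% and 98.8% of cycling cells and in 99.2%, 99.9% and 99.7% of resting cells. Foxn1, a further cTEC marker, was found in 64.6%, 65.9% and 43.5% of cycling and 61.2%, 63.6% and 44.1% of resting cells. The summed level of 6 cTEC markers was lower in cycling cells, at 3165, 4091 and 3896 CPM against 5384, 6771 and 6864. The summed level of the mTEC markers Krt5, Krt14, Aire and Fezf2 lay between 74.3 and 112 CPM in cycling cells and between 112 and 127 CPM in resting cells, and Fezf2 was at 0 in cycling cells at E15.5 and NB. Thymocyte transcripts differed: the summed level of 11 markers was 8.73 CPM in cycling and 7.84 in resting cells at E15.5, 40.2 and 15.4 at E17.5, and 156 and 85.3 at NB. At least 2 thymocyte UMIs were found in 4, 27 and 20 cycling cells and in 3, 47 and 131 resting cells. Haemoglobin and other erythroid transcripts summed to 45.3 CPM in cycling and 477 in resting cells at E17.5, and to under 1 CPM in the other libraries. Parathyroid transcripts came from few cells, with 2 cycling cells holding 3616 of 3666 UMIs at E15.5 and 1 cycling cell holding 4662 of 4820 at E17.5.

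Cycling cells also had more UMIs. The rule itself favours deeper cells in one group and shallower cells in the other, and how much of the difference this sets was not tested. Their median total was 9909.5 UMIs against 6913 in resting cells at E15.5, 14117 against 9835 at E17.5 and 8761 against 5913 at NB, a ratio of 1.43, 1.44 and 1.48. Cells with exactly 3 UMIs of the pair lay between, with a median of 7169.5, 11643 and 8147 UMIs. All cycling cells together expressed a median of 3234.5, 3703.5 and 3090 genes, against 2509, 2899 and 2349.5 in resting cells. Thinned to the same 4000 UMIs, the medians were 1804 and 1750 genes at E15.5, 1674 and 1621 at E17.5, and 1879 and 1820 at NB. A lower CPM in cycling cells therefore need not mean fewer transcripts per cell, and values per cell are given below for the main genes and lists.

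Expression was compared by summing UMIs over the cycling and over the resting cells of each library and fitting edgeR's quasi-likelihood test with the library as a block, so that the 3 libraries were the replicates. Of 12666 genes tested, 5275 (41.6%) passed a Benjamini-Hochberg adjusted p of 0.05, with 2451 (19.4%) higher and 2824 (22.3%) lower in cycling cells and a median log2 change over all genes of -0.04. Most changes were small: 844 tested genes lay above 1 and 214 below -1 on the log2 scale. Since so many genes were called, a list below is read by its sizes as well as its count. Without the library block the same test called 496 genes.

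The lists of DNA copying and division genes are described by their values, because the genes are co-expressed with the pair that chose the cells. All 43 S phase genes tested were higher, with a median log2 change of 2.70 and values up to 4.47 for Clspn, a replication checkpoint adaptor. All 52 G2M genes other than the chosen pair were higher, with a median of 4.64, from 1.01 for the chromatin insulator Ctcf to 5.80 for the spindle protein Nusap1. The gain was larger for the G2M than for the S phase list in each library, with per-library medians of log2 (CPM + 10) of 2.76, 2.41 and 2.91 against 1.43, 1.57 and 1.61 at E15.5, E17.5 and NB. The rule favours this order, because Top2a and Mki67 mark mainly the later stages, so no result is read from it.

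The early steps came with moderate changes. Mcm5, a subunit of the replicative helicase, was at 74.6 CPM in cycling and 15.2 in resting cells at E15.5, 63.8 and 8.42 at E17.5, and 93.4 and 9.81 at NB. The 18 origin licensing genes had a median of 2.15 (Orc2 0.43, Mcm10 3.62) and the 24 replication fork genes 2.01. The 21 nucleotide synthesis genes had a median of 0.96, from -0.50 for the purine enzyme Impdh1 to 4.43 for the thymidine kinase Tk1. Rrm2, the ribonucleotide reductase subunit made in S phase, was at 116, 138 and 217 CPM in cycling cells and 10.7, 8.84 and 11.8 in resting cells. The 34 genes of histone supply and DNA methylation maintenance had a median of 1.53, and the maintenance factor Uhrf1 was at 108, 67.0 and 88.4 CPM against 18.9, 9.56 and 7.55.

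The late steps showed the larger changes, an order that the rule favours. Ccnb1, the mitotic cyclin, was at 388 CPM in cycling and 8.20 in resting cells at E15.5, 260 and 10.2 at E17.5, and 383 and 4.68 at NB. Cdc20, which activates the anaphase-promoting complex, was at 540, 326 and 649 CPM against 24.0, 15.3 and 15.4. The spindle and cytokinesis list of 28 genes had a median of 4.73 and the kinetochore and checkpoint list of 21 genes 3.73, in which the checkpoint kinase Bub1 was highest at 5.59. Within the anaphase-promoting complex list (median 0.41 over 17 genes) its mitotic ubiquitin-conjugating enzyme Ube2c reached 5.53.

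The G1 and G1/S cyclins and kinases did not move alike. Ccne2, a G1/S cyclin, was at 12.7, 21.0 and 18.1 CPM in cycling and 1.51, 1.35 and 1.27 in resting cells (log2 change 3.69 ± 0.18), above the median of the S phase list. Its relative Ccne1 was at 26.4, 14.3 and 39.6 CPM in cycling and 4.03, 3.10 and 4.57 in resting cells. Cdk4, the G1 kinase, was at 725, 553 and 509 CPM against 519, 386 and 341. Ccnd2, the D-type cyclin that these cells express, was at 243, 355 and 371 CPM in cycling and 264, 360 and 398 in resting cells, a log2 change of -0.11 ± 0.05 (SE, n = 3 libraries, adjusted p = 0.099). Ccnd1 was low in both, at 3.0 to 5.47 CPM in cycling and 4.04 to 5.84 in resting cells (-0.35 ± 0.19, adjusted p = 0.16).

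Most inhibitors of the cyclin-dependent kinases were higher in cycling cTEC. Of 7 tested, 5 were higher, beside 19.4% of all genes. Genes of this list can be co-expressed with the pair that chose the cells, so the count and the p-values below are descriptions. Cdkn2c (p18) was at 37.0 and 1.44 CPM at E15.5, 30 and 1.42 at E17.5, and 66.1 and 1.10 at NB in cycling and resting cells. Its change was 4.80 ± 0.18 on the log2 scale. Cdkn2d (p19) was higher by 2.70 and Cdkn3, a phosphatase of cyclin-dependent kinases, by 4.0. Cdkn1b (p27) was at 43.3, 30.5 and 103 CPM against 21.2, 20.3 and 55.6 (0.78 ± 0.10, adjusted p = 1.0e-05). Cdkn1c (p57) was at 91.0 CPM in cycling and 95 in resting cells at E15.5, 360 and 208 at E17.5, and 61.0 and 38.7 at NB, so its change of 0.43 ± 0.11 (adjusted p = 0.0055) was absent at E15.5, and it no longer passed without E17.5 (0.21, adjusted p = 0.16) or without NB (0.40, adjusted p = 0.053). Cdkn1a (p21), the inhibitor induced by p53, had 16.8, 38.9 and 63.1 CPM against 18.6, 26.4 and 54.4 and did not pass (0.23 ± 0.11, adjusted p = 0.099).

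Promoters of the 2 cell cycle lists differed in their letters. RefSeq windows from 250 bases before to 50 bases after each gene start in GRCm38.p6 were searched on both strands for the cell cycle homology region core (CHR, TTTGAA), through which MuvB complexes bind, and for E2F-type letters (TTCCCGC or TTGGCGC), and 46 of 54 G2M genes and 31 of 43 S phase genes had a window. The CHR letters were in 33 of 46 G2M genes (71.7%), 6 of 31 S phase genes (19.4%) and 14.0% of the tested genes with a window, and the share of all promoters that held them was 17.9%. The E2F letters were in 7 of 46 G2M genes (15.2%), 17 of 31 S phase genes (54.8%), 14.5% of the tested genes and 6.81% of all promoters. A match is a description, not a binding site or a cause of the levels above. The stretches below, cut at the gene start, show the CHR letters in capitals for the genes that chose the cells, the marker Cdk1 and Cdc20, and the E2F letters in capitals for Mcm5 and Uhrf1, each printed on the gene's own strand. Ccnb1, Ccna2, Plk1, Aurka and Foxm1 were also searched for the CHR letters and gave no stretch before the gene start. Ccne1, Mcm2, Pcna, Rrm2, Tyms, Tk1, E2f1, Mybl2 and Dnmt1 likewise gave none for the E2F letters. Whether they lacked a match or a window was not separated. For Mcm5 the match was on the opposite strand, so its capitals are the reverse complement of TTGGCGC, and only 1 match per stretch is in capitals, since Mki67 and Mcm5 hold another in lower case. They lie at chr11:99024333-99024398 (minus strand) for Top2a, chr7:135716460-135716525 (minus) for Mki67, chr10:69352948-69353013 (minus) for Cdk1, chr4:118437344-118437391 (minus) for Cdc20, chr8:75109315-75109381 (plus) for Mcm5 and chr17:56303259-56303325 (plus) for Uhrf1.
Top2a: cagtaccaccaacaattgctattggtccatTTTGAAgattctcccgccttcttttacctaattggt
Mki67: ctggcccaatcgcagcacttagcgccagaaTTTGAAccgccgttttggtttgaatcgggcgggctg
Cdk1: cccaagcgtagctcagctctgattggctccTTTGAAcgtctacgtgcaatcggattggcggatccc
Cdc20: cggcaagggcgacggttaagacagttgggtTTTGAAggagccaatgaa
Mcm5: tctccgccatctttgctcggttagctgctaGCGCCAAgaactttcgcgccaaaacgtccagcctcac
Uhrf1: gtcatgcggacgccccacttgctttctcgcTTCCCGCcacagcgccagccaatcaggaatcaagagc

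Of the E2F, RB and MuvB regulators themselves, 11 of 19 were higher and 1 lower (median 0.74), beside 19.4% higher and 22.3% lower of all genes. These genes too can be co-expressed with the pair that chose the cells, so the count is a description. Mybl2, which encodes B-MYB, was at 12.6, 8.99 and 10.1 CPM in cycling and 1.30, 0.866 and 0.606 in resting cells, and Foxm1 at 30.5, 19.5 and 24.4 against 6.55, 3.85 and 4.74. E2f1 lay between 15 and 18.1 CPM against 1.60 to 3.31 CPM. All 3 levels were low, and each was higher in cycling cells of every library.

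Cycling cells held many UMIs of both phase lists. Their median was 28 S phase and 127 G2M UMIs per cell at E15.5, 31 and 116 at E17.5 and 25 and 112 at NB, against 4 and 8, 5 and 11, and 4 and 8 in resting cells. The name resting is a label by the 2 genes only. Of the resting cells, 43, 48 and 35 held at least the cycling cells' median of S phase UMIs. Over the listed genes, with Top2a and Mki67 left out, 85.5% of cycling cells at E15.5 (interval 82.9 to 87.9), 81.9% at E17.5 (79.2 to 84.4) and 83.5% at NB (78.4 to 87.9) had more G2M than S phase UMIs. So did 76.0%, 90.0% and 83.1% of resting cells, because the G2M list sums to more UMIs in either state, and this share therefore does not tell the phase of a cell. Between 17% and 20.1% of cells lay within 10 percentage points of equal amounts, so the classes are ranges of a score and not separate types, and Mcm5 and Ccnb1 belong to the lists that set them. Cells with under 40% G2M UMIs numbered 55, 70 and 22, and had a Mcm5 level of 194, 164 and 295 CPM and a Ccnb1 level of 18, 20.1 and 9.66 CPM. Cells with over 60% numbered 597, 613 and 186, and had 44.1, 35.1 and 45.1 CPM of Mcm5 and 492, 351 and 520 CPM of Ccnb1. Psmb11 stayed below the resting level in every class, at 866, 786 and 855 CPM in the S-rich and 848, 815 and 658 CPM in the G2M-rich cells.

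**Figure D3:**
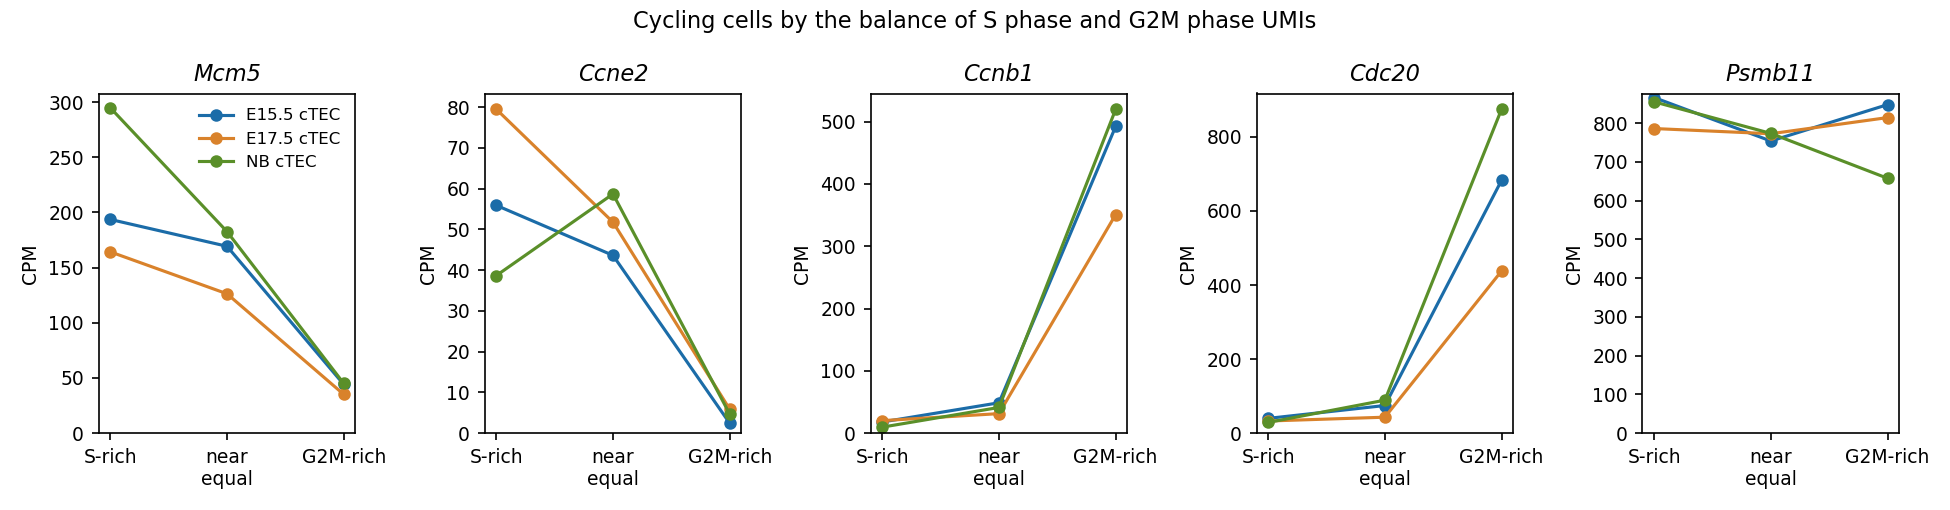
CPM of Mcm5, Ccne2, Ccnb1, Cdc20 and Psmb11 in cycling cells with under 40% (S-rich), 40 to 60% (near equal) and over 60% (G2M-rich) of their phase UMIs in G2M genes, 1 line per library. Mcm5 goes from 194, 164 and 295 to 44.1, 35.1 and 45.1 CPM while Ccnb1 goes from 18, 20.1 and 9.66 to 492, 351 and 520 CPM.

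Many, but not all, of the genes with which cTEC serve developing T cells were lower in cycling cells as a share of the UMIs. Of 25 cortical function genes tested, 15 were lower and 2 higher, with a median of -0.39, beside 22.3% lower and 19.4% higher of all genes. Psmb11, the catalytic subunit of the thymoproteasome, was at 833 CPM in cycling and 1627 in resting cells at E15.5, 804 and 1592 at E17.5, and 697 and 1465 at NB (-1.04 ± 0.05, adjusted p = 1.9e-11). Prss16, the thymus-specific serine protease, was at 1567, 2309 and 2064 CPM against 2696, 3890 and 4011 (-0.87 ± 0.04, adjusted p = 1.8e-10). Both proteases were lower in cycling cells of every library.

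The steepest fall of the list was that of Tbata, a gene known for restraining the proliferation of thymic epithelium. It was at 880 CPM in cycling and 2736 in resting cells at E15.5, 2524 and 6173 at E17.5, and 2243 and 5167 at NB (-1.41 ± 0.05, adjusted p = 1.3e-12). Ccl25, a chemokine that draws progenitors into the thymus, was at 1407, 1119 and 2089 CPM against 2517, 2621 and 4553 (-1.10 ± 0.06, adjusted p = 7.0e-10). Foxn1, the master transcription factor of TEC, fell less, with 115, 91.5 and 68.6 CPM against 154, 116 and 101 (-0.45 ± 0.07, adjusted p = 8.2e-05). Each of these genes was lower in cycling cells of every library.

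Il7, Dll4 and Kitl, which signal to thymocytes, lay close to their resting levels. Il7, the cytokine of early thymocytes, was at 321, 277 and 269 CPM against 372, 316 and 285 (-0.20 ± 0.05, adjusted p = 0.0078), which did not pass without E15.5 (-0.17, adjusted p = 0.072) or without E17.5 (-0.15, adjusted p = 0.17). Dll4, the Notch ligand that sets the T cell fate, had 78.2, 47.0 and 48.0 CPM against 79.3, 52.8 and 55.1 (-0.15 ± 0.08, adjusted p = 0.15). Kitl, the stem cell factor, had 81.8, 66.6 and 90.1 CPM against 77.1, 50.1 and 81.3 (0.19 ± 0.08, adjusted p = 0.055).

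Epcam, the adhesion molecule on which the cells were sorted, was the strongest riser of the list. It was at 605 CPM in cycling and 275 in resting cells at E15.5, 572 and 255 at E17.5, and 906 and 521 at NB (1.0 ± 0.07, adjusted p = 7.8e-09). A UMI of Epcam was found in 93.9%, 98.3% and 97.6% of cycling cells against 70.7%, 81.2% and 91.4% of resting cells. Keratin 8 (Krt8) of the epithelial skeleton went the other way, from 5088, 4114 and 6324 CPM in resting to 3650, 2810 and 4725 in cycling cells (-0.52 ± 0.03, adjusted p = 3.7e-09).

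**Figure D4:**
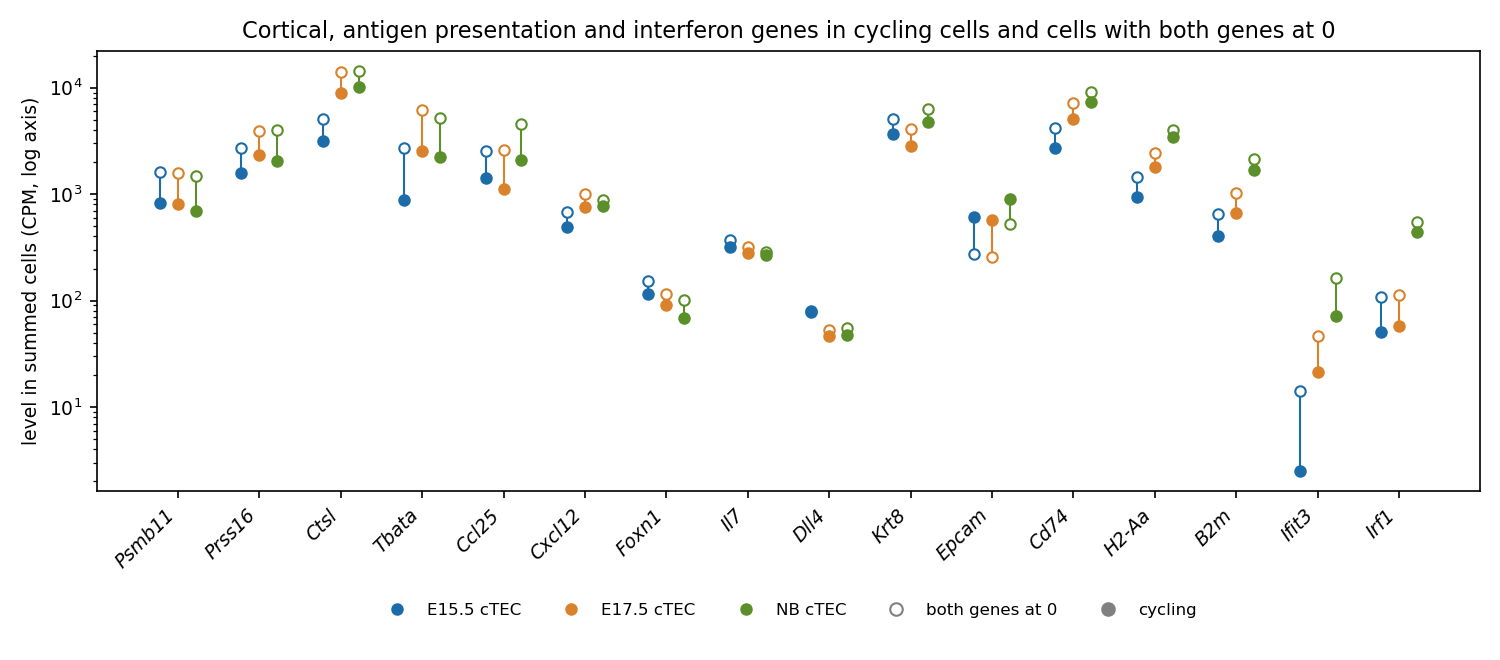
CPM of cortical genes in cycling and resting cells of the E15.5, E17.5 and NB libraries, with points joined within a library. Psmb11, Prss16, Tbata and Ccl25 are lower in cycling cells of all 3 libraries and Epcam is higher.

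Counted per cell, the picture was divided. Because cycling cells held more UMIs, the median tested gene had 1.45, 1.43 and 1.43 times as many UMIs per cycling cell as per resting cell at E15.5, E17.5 and NB. Psmb11 had 0.757, 0.718 and 0.683 times as many and Tbata 0.475, 0.581 and 0.623, so both were also fewer per cell. Foxn1 had 1.11, 1.12 and 0.972 times as many and Cxcl12, the chemokine that retains thymocytes in the cortex, 1.07, 1.08 and 1.25. Over the 25 cortical genes the median ratio was 1.10, 1.12 and 1.07, with 8 or 9 genes below 1 in each library. Epcam had 3.26, 3.19 and 2.5 times as many UMIs per cycling cell, while Krt8 had 1.06, 0.971 and 1.07 and Il7 had 1.28, 1.25 and 1.36, so neither of the last pair was clearly fewer per cell.

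Antigen presentation genes were lower on the CPM scale. All 10 MHC class II pathway genes tested were called lower (median -0.48), beside 22.3% of all genes, from -0.82 for H2-Oa, a modulator of peptide loading, to -0.27 for H2-DMb1, a chain of the peptide loading factor, which did not pass without E15.5 (-0.14, adjusted p = 0.16). H2-Aa, a class II chain, was at 946 CPM in cycling and 1441 in resting cells at E15.5, 1813 and 2455 at E17.5, and 3444 and 3984 at NB (-0.45 ± 0.05, adjusted p = 1.2e-06). Of 12 MHC class I genes 10 were lower (median -0.45), led by the immunoproteasome subunit Psmb10 at -0.93. Of 16 interferon-stimulated genes 14 were lower (median -0.54, against -0.04 for all genes), led by Ifit3 with 2.49, 21.5 and 71.1 CPM against 14.1, 46.3 and 163 (-1.36 ± 0.13, adjusted p = 5.9e-07).

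In the main comparison, with all resting cells, the gap in class II genes was widest at E15.5. The per-library medians of the class II list were -0.53 at E15.5, -0.43 at E17.5 and -0.21 at NB on the log2 (CPM + 10) scale, beside 0.00 or -0.01 for all genes, and this difference between libraries has no test. Per cell, the median class II gene had 0.964, 1.04 and 1.23 times as many UMIs in cycling as in resting cells and the median interferon gene 0.735, 1.03 and 1.13, so that at E17.5 and NB the lists were not fewer per cell. Beside 22.3% of all genes called lower, lysosomal genes were lower in 10 of 20 and higher in 2, among them Lgmn, an asparaginyl protease (0.55 ± 0.08, adjusted p = 7.5e-05). Of 14 p53 target genes 11 were lower (median -0.37). Per cell the median ratios were 1.01, 1.04 and 1.16 for class I, 1.21, 1.19 and 1.24 for lysosomal and 1.17, 1.20 and 1.13 for p53 target genes, below the all-gene ratios but not below 1.

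**Figure D5:**
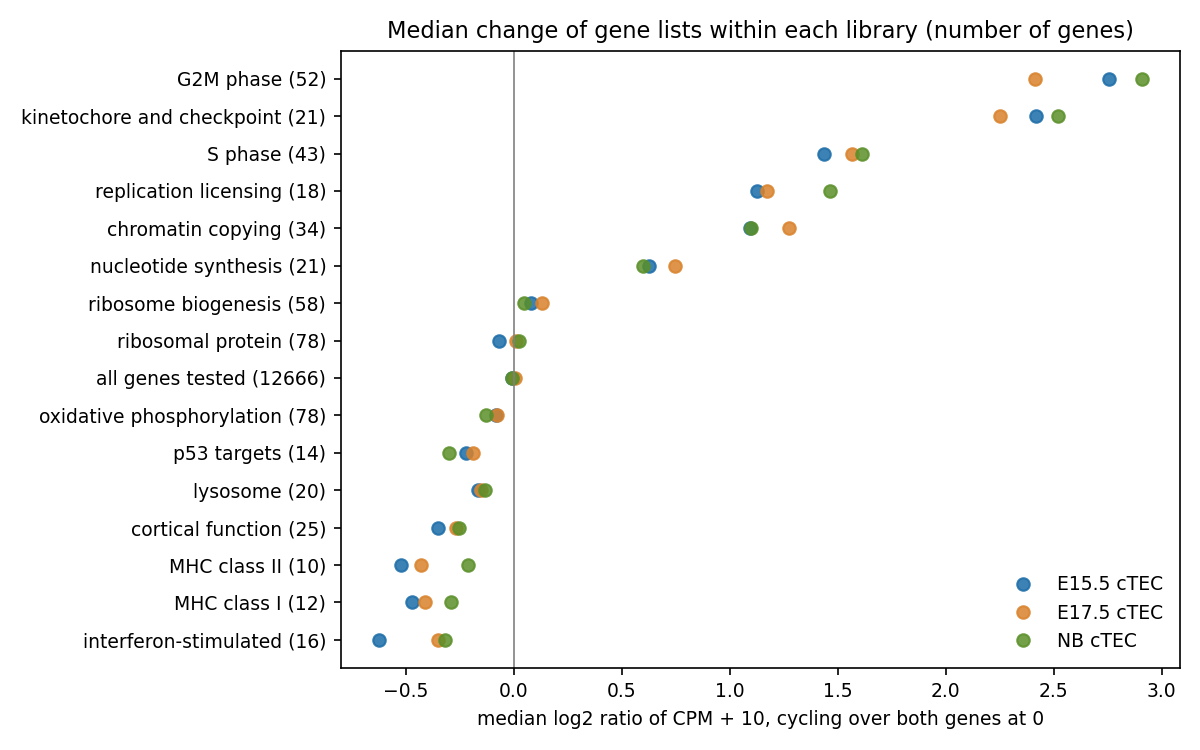
Median log2 ratio of CPM + 10, cycling over resting cells, for each gene list in the E15.5, E17.5 and NB libraries. The G2M list lies at 2.76, 2.41 and 2.91 and the S phase list at 1.43, 1.57 and 1.61, whereas the ribosomal protein list lies at -0.07, 0.01 and 0.03 and the class II list at -0.53, -0.43 and -0.21.

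The translation machinery moved little. Ribosomal protein transcripts made up 23.7% of UMIs in cycling and 24.7% in resting cells at E15.5, 26.4% and 26.2% at E17.5, and 15.47% and 15.09% at NB, so the difference was -1.04, 0.17 and 0.37 percentage points. Its sign at the later ages rested on the limit, since with at least 6 UMIs of the pair it was -1.21, -0.27 and -0.017 points. With resting cells matched on UMIs it was -0.99, 1.03 and 0.63, and without cells with thymocyte UMIs it was 0.15 at NB. Of 78 ribosomal protein genes 26 were lower and 3 higher (median -0.04), beside 22.3% lower and 19.4% higher of all genes, and since these genes have many near-identical copies in the genome their counts are uncertain. Ribosome biogenesis genes were higher in 20 of 58 and lower in 2 (median 0.11), with Ncl, the nucleolar protein nucleolin, at 1135, 743 and 1237 CPM against 951, 618 and 1116 (0.19 ± 0.05, adjusted p = 0.0040). Nuclear genes of oxidative phosphorylation were lower in 38 of 78 (median -0.13), with a median of 1.39, 1.35 and 1.31 times as many UMIs per cycling cell.

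Myc transcripts were few and took a smaller share of the UMIs in cycling cells. Myc was at 13.2 CPM in cycling and 18.4 in resting cells at E15.5, 11.7 and 18.2 at E17.5, and 23.6 and 27.2 at NB (-0.52 ± 0.11, adjusted p = 0.0016), a fall that did not pass without E17.5 (-0.35, adjusted p = 0.083). Per cell it had 1.06, 0.909 and 1.24 times the UMIs of resting cells, so the fall was not seen on that scale at E15.5 and NB. Against the 19, 57 and 32 resting cells with the fewest cell cycle UMIs the sign turned (0.79, adjusted p = 0.76), but those cells were shallow, with a median of 2682, 1364 and 3401 UMIs. The relatives Mxd3 and Mxd4 that dimerise with Max moved apart: Mxd3 was at 63.1, 41.8 and 81.7 CPM against 1.22, 1.79 and 0.936, and Mxd4 at 43.5, 104 and 55.1 against 107, 224 and 121 (-1.21 ± 0.07, adjusted p = 6.5e-10). Hmga2, a fetal chromatin protein, was at 104, 55.5 and 29 CPM against 52.0, 27.9 and 16.4 (0.94 ± 0.08, adjusted p = 2.3e-07), whereas Igf2bp3, a fetal RNA-binding protein, had 79.2, 44.5 and 90.9 against 78.6, 44.7 and 90.4 (-0.03 ± 0.07, adjusted p = 0.78).

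Outside the cell cycle lists, the 10 largest rises of well-expressed genes included the mitotic kinases Pbk (5.74) and Melk (4.63), the kinetochore components Knstrn (3.73), Pmf1 (2.84) and Cenpl (2.5), and Lockd (3.88), a long non-coding RNA next to Cdkn1b. The 10 largest falls were, beside Tbata and Ifit3, those of Qrfp (a neuropeptide, -1.47), Hotairm1 (a non-coding RNA of the Hoxa cluster, -1.47), Fxyd2 (a regulator of the sodium pump, -1.44), Mvp (the major vault protein, -1.31), Isg20 (-1.25), Ppp1r27 (-1.25), Rab42 (-1.24) and S100a3 (-1.22). Hotairm1 was at 20.3, 40.2 and 16.4 CPM in cycling and 47.2, 110 and 58.6 in resting cells. The same sign in all 3 libraries was a condition for naming a gene here.

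Thymocyte genes were counted apart because their cells were unevenly spread. Of 10 tested, 8 were higher in cycling cells (median 1.31), beside 19.4% of all genes, and these counts cannot be separated from the uneven spread of thymocyte UMIs given above. After every cell with at least 2 thymocyte UMIs was removed, 14 of 25 cortical, 10 of 10 class II and 14 of 16 interferon genes were lower, beside 22.1% of all genes. Both parathyroid genes tested were higher, and these rested on the 3 cycling cells named above.

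Adult mTEC that met the same rule, 100 cells in replicate 1 and 527 in replicate 2, were compared next, with the limit that 2.56% and 6.27% of their tuft cells met it too. The test asked whether the difference between cycling and resting cells was the same in both. Of 12885 genes 3345 (26%) had a different cycling effect, 1296 (10.1%) more positive and 2049 (15.9%) more negative in cTEC, with an all-gene median of -0.06. That balance depended on scaling: with relative log expression factors it was 1628 to 1315. Lineage and age cannot be told apart here, and cycling mTEC held 2.06 and 2.03 times the UMIs of resting mTEC. With resting cells matched on UMIs 1149 of 11259 genes (10.2%) were called, 589 (5.23%) more positive and 560 (4.97%) more negative, and without E15.5, E17.5 or mTEC replicate 2 the count was 2128, 1687 and 1888.

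Ccnd2, Cdk4 and Cdkn2c differed in their cycling effect, while of the 21 cyclins and kinases listed 7 were more positive and 6 more negative in cTEC (median 0.00), beside 10.1% and 15.9% of all genes. For Ccne1 the difference was -0.19 (adjusted p = 0.67) and for Cdkn1b 0.30 (adjusted p = 0.29). Ccnd2 was at 1052 CPM in cycling and 655 in resting cells of mTEC replicate 1 and at 1074 and 698 in replicate 2, while it was level in cTEC, a difference in effect of -0.94 ± 0.07 (adjusted p = 0.00016) and of -0.40 (adjusted p = 0.016) after matching. Cdk4 was at 613 and 241, and 447 and 181 CPM (difference -1.01 ± 0.08, adjusted p = 0.00016, matched -0.74). Cdkn2c was already present in resting mTEC, with 102 and 58.7 CPM in replicate 1 and 68.5 and 36.3 in replicate 2, against at most 1.44 CPM in resting cTEC (difference 3.76 ± 0.27, adjusted p = 0.00011, matched 4.29).

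For ribosomal protein genes the difference in cycling effect depended on the matching of UMIs. The ribosomal protein share was 3.84 and 4.67 percentage points higher in cycling than in resting mTEC, and all 78 ribosomal protein genes had a more negative effect in cTEC (median -0.52), beside 15.9% of all genes. With resting cells matched on UMIs the mTEC differences were 2.0 and 1.95 points and 5 of the 78 genes were called more negative (median -0.17), a share near the 4.97% of all genes. Adult cTEC replicate 2, with 22 cycling cells and in no test, had a difference of 1.20 points and of 4.46 after matching. Ribosome biogenesis genes were more negative in cTEC in 42 of 58 (median -0.70), beside the same 15.9%, and in 16 of 58 after matching, beside 4.97%, with Npm1, the nucleolar protein nucleophosmin, at -0.88 ± 0.07 (adjusted p = 0.00016) before and -0.33 (adjusted p = 0.039) after. In the G2M list, whose genes are co-expressed with the pair that chose the cells, the median difference was 1.28 before and 1.81 after matching, and no test is read from it.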

How the data were processed

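UMI counts per gene and cell were deposited by the authors as unnormalised matrices. Per the labels, 10x Genomics Chromium v2 libraries were sequenced on a NextSeq, and the submitters' processing notes name bcl2fastq 2.17, STAR 2.5.1b, Cell Ranger 2.0.1 and mm10, while the headers of the second data set name Cell Ranger 3.0.1. Files held 27998 genes in the first and 31053 in the second data set, and the 27514 in both were used. Kept UMIs totalled 27640041 at E15.5, 90103548 at E17.5 and 24742867 at NB.

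Cells with over 5% mitochondrial UMIs or over 5000 genes were removed, following the study's limits. This left the number of cells that the study gives for E15.5 and NB, and fewer at E17.5. Doublets were not called, and no clustering was done. UMIs were summed per library and state, and the sums were tested with edgeR 4.0.16 (filterByExpr, TMM scaling, quasi-likelihood test, library as block) in R 4.3.3, over all genes, with Top2a and Mki67 left out of the counts of calls. The cTEC and mTEC effects were compared by an interaction term over 10 sums from 5 libraries. Ratios per library used CPM + 10, and thinning drew 4000 UMIs per cell without replacement, leaving out shallower cells. The script was tested on counts drawn with 200 genes changed by 1 on the log2 scale, of which 200 were recovered in the cycling comparison and 197 in the interaction, with 6.54% and 8.80% of calls false. DESeq2 1.42.0, relative log expression scaling, no filter, no block, resting cells matched on UMIs, other UMI limits and removal of each library, of thymocyte, haemoglobin or parathyroid positive cells (the last chosen after seeing the data) were alternatives.

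The cells, gene lists and tests were chosen with earlier results of these data known. Named were Top2a, Mki67 and Cdk1, a preset set of cycle, cortical and growth genes, the 10 largest rises and falls and the 5 largest interaction terms each way among called genes with an average log2 CPM above 5 outside the cycle, ribosomal, haemoglobin and other-cell lists (the rises and falls with the same sign in 3 libraries), and the lowest and highest gene of each list. Cdkn2d and Cdkn3 were named after their values were seen. Promoters were read from RefSeq (GRCm38.p6). Genes in only 1 data set were not analysed here.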

Additional observations from a re-analysis of the deposited data

Results flagged for a closer look

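The cycling effect differed between cTEC and adult mTEC for 3345 of 12885 genes by the interaction term of edgeR's quasi-likelihood test. The genes below are those with the largest terms, with 3 cTEC and 2 mTEC libraries behind each.

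Among the terms above 0, Krtdap, Dapl1, Mgp and Apoe were higher in resting than in cycling mTEC. Krtdap, a keratinocyte differentiation gene, had a term of 4.93 (adjusted p = 0.00011), with 29.1, 11.3 and 6.31 CPM in cycling cTEC against 7.12, 1.62 and 1.87 in resting cTEC, and 14.8 and 45.3 CPM in cycling mTEC against 211 and 257 in resting mTEC, so it reached the expression limit through mTEC, where it is high. Dapl1 had a term of 4.43 (adjusted p = 0.0013), with 2.20 and 36.5 CPM in cycling against 151 and 360 in resting mTEC and at most 2.51 CPM in cTEC, so it too reached the limit through mTEC and its term rests on mTEC. Mgp, the matrix Gla protein, had a term of 3.70 (adjusted p = 0.00028). Apoe, the lipid carrier, had a term of 3.66 (adjusted p = 0.00079), with 74.6, 327 and 410 CPM in cycling against 18.9, 94.5 and 139 in resting cTEC and 108 and 217 against 1075 and 502 in mTEC. Sptssb, a subunit of serine palmitoyltransferase, had a term of 3.55 (adjusted p = 0.0043), with 75.1 to 258 CPM in cTEC but 0 and 5 UMIs in cycling and 5.84 and 4.38 CPM in resting mTEC, so it reached the limit through cTEC.

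The terms below 0 were led by Cxcl2, a neutrophil chemokine, at -2.51 (adjusted p = 0.0093) and Casp1, the inflammatory caspase, at -2.18 (adjusted p = 0.0038), both at most 6.22 CPM in cTEC. Cycling cTEC held 0, 0 and 2 UMIs of Cxcl2 and 0, 3 and 2 of Casp1 at E15.5, E17.5 and NB, so both reached the limit through mTEC and their terms rest on almost no UMIs in cycling cTEC. Srm, spermidine synthase, had a term of -1.89 (adjusted p = 0.00012), with 178 and 117 CPM in cycling against 49.8 and 45.9 in resting mTEC, and 65.0, 49.2 and 71.6 against 69.7, 54.1 and 76.8 in cTEC. Nt5dc2 had a term of -1.86 (adjusted p = 0.00079) and Gm266 of -1.80 (adjusted p = 0.00011).

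The ribosomal protein share of UMIs, cycling minus resting, was -1.04 percentage points at E15.5 and 0.17 at E17.5 and 0.37 at NB, with E15.5 opposite in sign to the later ages. At 6 UMIs of the pair all 3 were below 0 (-1.21, -0.27 and -0.017), and without cells with thymocyte UMIs the NB value was 0.15. The difference was not tested, with 1 library per age.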

How the results depend on the processing

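Over 145 named genes the sign and side of the threshold of the cycling change held in 1805 values under the alternatives, 164 kept the sign but no longer passed, 16 newly passed and 5 turned sign: Myc to 0.79, Eif3e to 0.072, H2-DMb1 to 0.32 and Pttg1 to 0.21 against the resting cells lowest in cycle UMIs, and Cd3d to -1.27 without cells with thymocyte UMIs, a filter that uses Cd3d itself. The 10 interaction genes held in 87 values and no longer passed in 13. No cause was tested.

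The labels give no replicate numbers, and those used here only name libraries in accession order, so that the 2 states were paired by their library. Without this replicate block the cycling comparison called 496 genes and the interaction 3. Against the resting cells lowest in cycle UMIs 678 genes were called. Leaving out each library gave 3678 to 4671 calls for the cycling change and 1687 to 2775 for the interaction. The interaction had 2167 calls with DESeq2 and 1149 with matched UMIs. The split of higher to lower was 985 to 2990 without the filter, 1886 to 889 without mTEC replicate 1 and 1307 to 581 without replicate 2.

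Shares at 2 UMIs were 26.8% (E15.5), 15.4% (E17.5), 9.96% (NB), 54.8% (E13.5), 4.73% (adult cTEC replicate 1) and 8.26% and 14.5% (mTEC), and at 6 UMIs 17.1%, 7.62%, 4.63%, 33.1%, 0.394% and 1.87% (adult cTEC) and 3.78% and 5.57%. Thinned shares were 17%, 5.40%, 5.33%, 35.7%, 1.67% (adult cTEC replicate 2) and 1.95% and 2.53%. With all deposited cells mTEC replicate 2 had 11.3%.

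The ribosomal difference at 6 UMIs was -1.21, -0.27 and -0.017 points at E15.5, E17.5 and NB (the last pair turned sign) and 4.19 and 5.14 in mTEC. Matched on UMIs it was -0.99, 1.03, 0.63, 2.0 and 1.95. Without thymocyte cells it was 0.21 at E17.5, 0.15 at NB and 3.55 and 4.73 in mTEC, without haemoglobin cells 4.02 and 4.72 in mTEC, and against the lowest cells 3.76 at E17.5, 1.21 at NB and 10.1 in mTEC replicate 2.

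List medians moved to -0.27 for cortical genes at E15.5 at 6 UMIs and matched, to 1.46 for S phase at NB and 0.062 for ribosomal proteins at E17.5 when matched. Against the lowest cells at E17.5 and NB they were 2.01 and 2.52 (S), 3.16 and 3.49 (G2M), -0.37 and -0.41 (cortical), 0.23 and 0.10 (ribosomal) and -0.25 (class II, E17.5). With CPM + 1 they were 2.18, 2.42 and 2.75 (S), 4.17, 3.96 and 4.63 (G2M) and -0.41, -0.345 and -0.31 (cortical). Cells with more G2M UMIs were 75.8%, 71.1% and 72.9% at 60% and 93.0%, 91.5% and 91.4% at 40%.

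Levels near 10 CPM rest on few UMIs, such as the 24 UMIs of Mybl2 in 255 cycling NB cells.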

Other observations

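Of 30 Notch, Wnt, Fgf and Igf pathway genes, 11 were higher and 4 lower in cycling cTEC, with a median log2 change of 0.09, beside 19.4% higher and 22.3% lower of all genes. Etv4, an ETS factor induced by Fgf receptors, was at 13.7 CPM in cycling and 3.6 in resting cells at E15.5, 17.7 and 5.09 at E17.5, and 8.84 and 3.53 at NB (1.72 ± 0.15, adjusted p = 1.2e-07, edgeR). Fgf21, which TEC secrete, was at 1.75, 3.81 and 6.73 CPM against 3.31, 9.45 and 11.4 (-1.16 ± 0.18, adjusted p = 0.00010). Etv4 was higher and Fgf21 lower in every library.

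Beside the same shares of all genes, among redox and stress genes 4 of 19 were higher and 9 lower (median -0.17). Prdx4, the peroxiredoxin of the endoplasmic reticulum, stood at the upper end with 94.1, 143 and 190 CPM in cycling against 38.9, 57.8 and 62.7 in resting cells (1.35 ± 0.07, adjusted p = 3.4e-10). Of 16 glycolysis genes 7 were higher and 2 lower (median 0.10), and of 16 immediate early genes 3 were higher and 5 lower (median -0.13).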
